A study of Mus musculus with 2 samples.

Results

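The genes described here are 10 Hox cluster genes of the mouse colon epithelium: Hoxb13, Hoxd10, Hoxd11, Hoxd13, Hoxa10, Hoxa13, Hoxb9, Hoxb7, Hoxb6 and Hoxa11os. They were taken by symbol, not by their values, and all 10 were found among the 17044 genes of the deposited table. The label of the list, posterior Hox genes, describes most of them by position in their complexes. Hoxb6 and Hoxb7 belong to the central paralog groups, however, and Hoxa11os is an RNA transcribed from the strand opposite Hoxa11. The series, titled for colonoid transplantation in radiation proctitis, holds single-cell RNA libraries of colon epithelium (wild type, strain C57BL/6) at 2 weeks after irradiation. Its 2 libraries form 1 group, and their labels name neither a transplanted nor an unirradiated sample. The authors' table gives 1 average per gene in each of 12 numbered cell clusters, with both libraries pooled. Levels below are the authors' averages in UMIs per 10000 UMIs of a cell.

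Hox genes encode homeodomain transcription factors that lie side by side in complexes, in the order in which they are used along the body axis. Genes at one end of a complex act towards the head and those at the other end, the posterior genes, act towards the tail, and the hindgut and rectum carry the most posterior ones. In the adult colon, epithelial cells keep a Hox profile that reflects their place between caecum and anus. Hoxb13 and the posterior Hoxd genes are known from the distal colon and rectum, and Hoxb6 to Hoxb9 from more proximal gut.

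The clusters held 3082 cells, from 19 to 482 each, at a median of 12197.5 UMIs per cell among the cells whose total could be recovered from the averages. Cell type markers placed most clusters in the epithelium: the summed level of 8 epithelial markers was 98.9 to 250.9 in 10 clusters. In clusters 5 and 10 Epcam, an epithelial adhesion protein, was at 3.83 and 2.89 (14.9 to 37.6 elsewhere), and 8 of 9 leukocyte markers were highest in one or the other. All 6 goblet markers were highest in cluster 0, all 6 proliferation markers in cluster 7, all 5 enteroendocrine markers in cluster 11, and the 7 absorptive colonocyte markers in cluster 8 (4) or cluster 9 (3). Mesenchymal cells of the gut wall also use Hox genes. Of the fibroblast list, 4 of 10 markers were measured, with a summed level of 0.00741 to 1.96 in the 10 epithelial clusters, highest in cluster 11, and 5.30 in cluster 10. It was 0.0179 in cluster 8 and 0.00741 in cluster 9, so the clusters compared most closely below were near 0. Clusters 5 and 6 were shallow, at medians of 1406.5 and 2498.5 UMIs per cell, and cluster 11 held 19 cells. No column separates the libraries, so a difference between clusters and a difference between libraries cannot be told apart. Xist, which coats the inactive X chromosome, was uneven over the epithelial clusters, and near 0 in clusters 3, 8 and 9 alike. Its level was 0 for cluster 8, 0.0223 for cluster 9 and 0.0197 for cluster 3, against 0.236 to 2.99 for the other epithelial clusters, while the Y-linked genes Ddx3y, Eif2s3y and Kdm5d were above 0 in all 12, Ddx3y at 0.161 or more. The part of this in the Hox levels was not tested.

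The clusters were drawn by the authors from the same cells' expression, and no replicate stands behind an average. The comparisons are therefore descriptions with no test. Each value carries an exact Poisson 95% interval on the UMIs behind it, and each ratio an exact binomial one. Both cover counting error only, not variation between mice or libraries.

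The 3 Hoxd genes lie close together on chromosome 2 in mm10, all on the plus strand, with Hoxd12 between Hoxd13 and Hoxd11. Hoxd13 spans chr2:74668310-74671599, Hoxd11 spans chr2:74679557-74687016 and Hoxd10 spans chr2:74691924-74695105, and Hoxd11 and Hoxd10 overlap the same-strand transcript Gm28309 in the GENCODE M21 annotation. The sequences of their start regions are shown because these genes were lowest together in one absorptive cluster, and that of Hoxa13 because it was not. Each is 300 bases from RefSeq (GRCm38.p6), from 250 bases before the start to 50 after it, at chr2:74667975-74668274, chr2:74679308-74679607, chr2:74691641-74691940 and, on the minus strand, chr6:52260831-52261130.
Hoxd13: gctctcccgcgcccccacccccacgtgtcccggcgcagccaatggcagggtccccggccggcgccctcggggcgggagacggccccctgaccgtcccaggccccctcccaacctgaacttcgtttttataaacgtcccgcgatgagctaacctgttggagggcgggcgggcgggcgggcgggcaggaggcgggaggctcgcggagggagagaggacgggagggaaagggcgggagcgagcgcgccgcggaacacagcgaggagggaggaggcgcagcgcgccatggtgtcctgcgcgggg
Hoxd11: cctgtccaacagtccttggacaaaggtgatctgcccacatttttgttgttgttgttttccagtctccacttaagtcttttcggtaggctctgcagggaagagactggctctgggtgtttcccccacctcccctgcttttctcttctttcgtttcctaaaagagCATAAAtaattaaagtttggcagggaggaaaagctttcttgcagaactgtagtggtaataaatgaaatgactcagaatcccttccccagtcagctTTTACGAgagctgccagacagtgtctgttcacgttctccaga
Hoxd10: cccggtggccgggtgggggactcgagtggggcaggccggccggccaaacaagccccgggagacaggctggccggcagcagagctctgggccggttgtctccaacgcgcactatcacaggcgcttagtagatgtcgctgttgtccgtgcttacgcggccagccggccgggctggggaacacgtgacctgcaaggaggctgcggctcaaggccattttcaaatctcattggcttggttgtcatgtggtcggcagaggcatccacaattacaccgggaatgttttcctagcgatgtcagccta
Hoxa13: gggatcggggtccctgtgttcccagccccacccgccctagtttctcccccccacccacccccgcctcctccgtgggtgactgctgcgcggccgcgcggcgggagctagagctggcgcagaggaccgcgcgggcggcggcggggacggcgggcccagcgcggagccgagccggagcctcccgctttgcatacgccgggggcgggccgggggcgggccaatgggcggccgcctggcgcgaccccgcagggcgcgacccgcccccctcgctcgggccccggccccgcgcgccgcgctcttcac
Capitals mark matches to TTTATG (reverse CATAAA) and TTTACGA (reverse TCGTAAA), letters of the kind that CDX and posterior Hox proteins bind. Both were found in the Hoxd11 window alone, among 8 start regions of 6 matched genes, and a further motif, TTTATTG, in none. No other motif was searched, so a window without capitals can still hold related letters. Over all 32851 start regions of the table, 11.9% held TTTATG, 4.6% TTTATTG and 0.597% TTTACGA on either strand. The 4 windows also differed in base composition. CpG dinucleotides numbered 45 in Hoxa13, 37 in Hoxd13, 22 in Hoxd10 and 4 in this Hoxd11 window, against a median of 7 over all start regions. A second Hoxd11 start in the table, at chr2:74682073-74682372, held 25.

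Hoxb13, the most posterior gene of the Hoxb complex and a homeodomain factor of the distal gut and prostate, was measured in every cluster. Its level was highest in the enteroendocrine-marker cluster 11, at 9.26 (7.88 to 10.8). The absorptive cluster 8 followed at 7.72 (7.16 to 8.30) and cluster 3 at 7.44 (7.14 to 7.76). The intervals of clusters 11 and 8 overlapped, as did those of clusters 8 and 3, so the place of cluster 8 is not resolved. The interval of cluster 11 lay above that of cluster 3. A middle group followed, made of cluster 2 (4.77), cluster 1 (4.74), cluster 4 (4.15), the goblet-marker cluster 0 (3.92), the proliferating cluster 7 (3.51) and cluster 6 (3.11). Among the 10 epithelial clusters the lowest was cluster 9, at 1.31 (1.12 to 1.54), 7.04-fold below the highest and apart from every other epithelial cluster. The leukocyte-marker clusters were lower still, at 0.587 (0.361 to 0.903) in cluster 5 and 0.433 (0.201 to 0.813) in cluster 10. Free RNA or a few epithelial cells in those clusters cannot be told apart from expression by leukocytes.

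**Figure D1:**
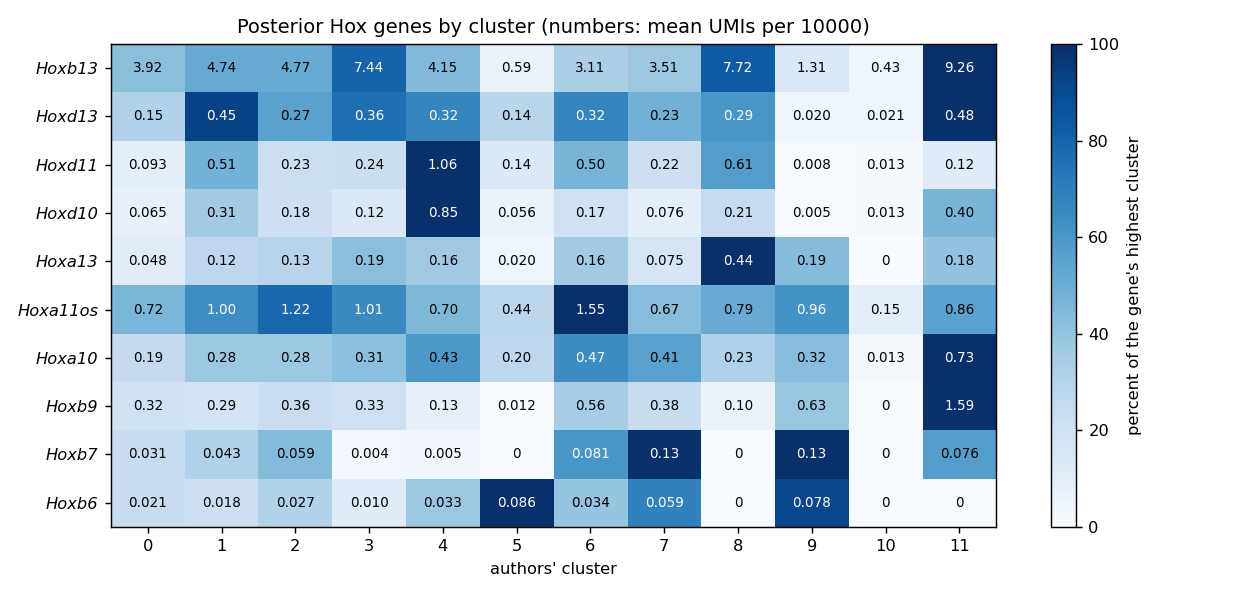
Heat map of the 10 genes (rows) in the 12 clusters (columns). The printed numbers are the authors' averages in UMIs per 10000, and the shade is the percent of each gene's highest cluster. Hoxb13 and the 3 Hoxd genes are lowest among epithelial clusters in cluster 9 (Hoxb13 1.31, against 3.11 or more in the others), whereas Hoxb6 and Hoxb7 have their highest epithelial levels there.

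Hoxd10 and Hoxd11, neighbouring genes that pattern limbs, kidney and hindgut, had their peak in a different cluster from Hoxb13. Hoxd10 was highest in cluster 4, at 0.852 (0.718 to 1.0), followed by cluster 11 (0.399), cluster 1 (0.307), cluster 8 (0.213), cluster 2 (0.183), cluster 6 (0.173), cluster 3 (0.123), cluster 7 (0.0763) and cluster 0 (0.0647). Hoxd11 was also highest in cluster 4, at 1.06 (0.910 to 1.23), followed by cluster 8 (0.607), cluster 1 (0.506), cluster 6 (0.498), cluster 3 (0.236), cluster 2 (0.232), cluster 7 (0.224), cluster 11 (0.124, from 2 UMIs) and cluster 0 (0.0927). Cluster 4 stood above the next cluster beyond the counting intervals for Hoxd11, and for Hoxd10 its interval overlapped only that of the 19-cell cluster 11. In cluster 9, Hoxd10 rested on 1 UMI in 1 cell (0.00464) and Hoxd11 on 2 UMIs in 2 cells (0.00782).

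Hoxd13, the gene at the posterior end of the complex and a factor of the rectum and the genital tubercle, was spread more evenly. Its levels ran through cluster 11 (0.481), cluster 1 (0.446), cluster 3 (0.364), cluster 6 (0.324), cluster 4 (0.322), cluster 8 (0.290), cluster 2 (0.266), cluster 7 (0.233) and cluster 0 (0.154). No 2 neighbours in this order were apart beyond their intervals. Cluster 9 again came last, with 2 UMIs in 2 cells (0.0200, 0.00242 to 0.0723). The balance within the complex also varied. In cluster 4 the sum of Hoxd10 and Hoxd11 was 5.94 times Hoxd13 (4.44 to 8.09). This ratio was 2.83 (1.80 to 4.58) for cluster 8, 1.83 (1.47 to 2.27) for cluster 1 and 0.987 (0.752 to 1.29) for cluster 3. The interval of cluster 4 lay above those of clusters 1 and 3 and overlapped that of cluster 8.

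The deficit of cluster 9 in the measured Hoxd complex rests mainly on the 3 members. Of 7 measured Hoxd genes, the 4 others (Hoxd12, Hoxd9, Hoxd8 and Hoxd4) were at 0 in cluster 9, so the whole complex gave 5 UMIs in its 168 cells. These 4 were at 0.0350 or less in clusters 3 and 8, beside a 3-UMI floor of 0.0252 in cluster 9. Their zeros therefore cannot show whether the deficit reaches them. The 3 members made up 0.723 of the summed 0.780 in cluster 3 and 1.11 of 1.18 in cluster 8. At the levels of cluster 3, which is similar in depth per cell, 93.0 UMIs would have been counted, and at those of cluster 8 141. The goblet-marker cluster 0, lowest of the remaining epithelial clusters, would have given 42.0. The Hoxa complex showed no such gap: its 11 protein-coding genes, all measured, summed to 2.07 (1.82 to 2.34) for cluster 9, 2.06 (1.90 to 2.23) for cluster 3 and 1.62 (1.37 to 1.90) for cluster 8. The ratio of the 3 Hoxd to the 3 Hoxa genes was 0.0222 in cluster 9 and 0.327 to 1.72 in the other epithelial clusters.

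**Figure D2:**
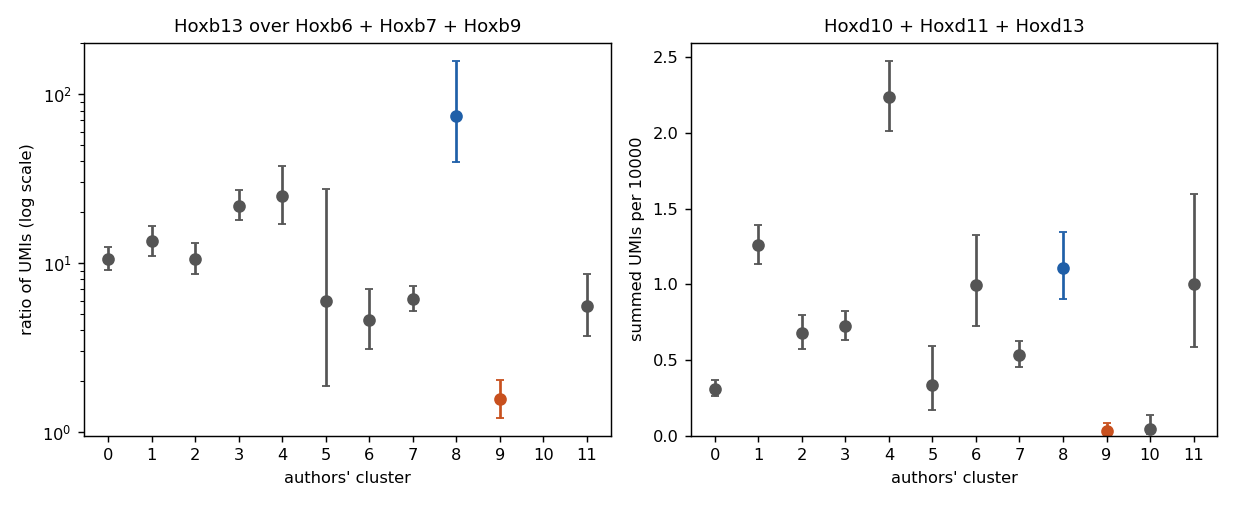
Ratio of Hoxb13 to the sum of Hoxb6, Hoxb7 and Hoxb9 (log axis), and the summed level of Hoxd10, Hoxd11 and Hoxd13 in UMIs per 10000, in each cluster, with 95% counting intervals. Cluster 8 has the highest ratio (74.1) and cluster 9 the lowest (1.57), and the Hoxd sum of cluster 9 (0.0325) lies below all other epithelial clusters.

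The Hoxa members followed other orders. Hoxa13, the posterior end of its complex on chr6:52257694-52260880 and a factor needed for hindgut and urogenital development, was highest in cluster 8, at 0.437 (0.312 to 0.594). Cluster 9 came next at 0.189 (0.120 to 0.285), followed by cluster 3 at 0.185 (0.140 to 0.240), and the goblet-marker cluster 0 was the lowest of the epithelial clusters at 0.0480 (0.0301 to 0.0726). The step from cluster 8 to cluster 9 was the only one between neighbours that exceeded the intervals. The remaining epithelial clusters lay between 0.0749 in cluster 7 and 0.176 in cluster 11, and cluster 10 was at 0.

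Hoxa10, a posterior gene on chr6:52231197-52240854 best known from the uterus and the blood lineage, varied 3.95-fold over the epithelial clusters. It was highest in cluster 11 (0.731), then cluster 6 (0.471), cluster 4 (0.435) and cluster 7 (0.408), and lowest among epithelial clusters in cluster 0 (0.185). Clusters 8 and 9 were close, at 0.233 and 0.316, with overlapping intervals. Hoxa11os, the transcript opposite Hoxa11 on chr6:52244393-52249799, varied least of the members above 0 in all epithelial clusters. Cluster 7 (0.668) and cluster 6 (1.55) were its extremes, 2.32-fold apart, and clusters 8 and 9 had 0.791 and 0.959. Whether reads were counted by strand is not given in the sources used here, so reads of Hoxa11os and of the overlapping part of Hoxa11 cannot be told apart.

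Hoxb9, Hoxb7 and Hoxb6 lie on chromosome 11 some distance from Hoxb13, at chr11:96271457-96276595, chr11:96286623-96290162 and chr11:96292476-96301569. Hoxb9, which acts in the skeleton and mammary gland, was highest in cluster 11, at 1.59 (1.05 to 2.31), followed by cluster 9 (0.626, 0.492 to 0.786), cluster 6 (0.561), cluster 7 (0.380), cluster 2 (0.364), cluster 3 (0.325), cluster 0 (0.317) and cluster 1 (0.290). It was low in cluster 4 at 0.129 (0.0808 to 0.197) and in cluster 8 at 0.104 (0.0490 to 0.194), the reverse of Hoxb13 for clusters 8 and 9. Cluster 11 was the exception, high in both.

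Hoxb7 was at the same level in cluster 9 (0.134, 0.0767 to 0.218) and in the proliferating cluster 7 (0.134, 0.0946 to 0.184). It was at 0.0807 or less elsewhere, down to 0.00455 for cluster 4, 0.00401 for cluster 3 and 0 for cluster 8. Hoxb6 was sparse throughout: its highest epithelial level was that of cluster 9 (0.0784), followed by cluster 7 (0.0592), and it was at 0 in clusters 8, 10 and 11. The zeros of cluster 8 allow up to 0.0326 (3 UMIs). The Hoxb6 zero of cluster 11 allows up to 0.174, above its level in any cluster. Hoxb6 overlaps Hoxb5os on the opposite strand.

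Clusters 8 and 9 were the 2 absorptive clusters by their markers, and their posterior Hox levels went in opposite directions along the Hoxb complex. They were chosen for comparison because an earlier view of these data showed that position genes differ between them. With a pseudocount of 0.1 per 10000, 4 of 10 members were at least 2-fold higher in cluster 8 (Hoxb13, Hoxd10, Hoxd11 and Hoxd13), against 3.75% of all 17044 genes. In the other direction, 2 of 10 (Hoxb9 and Hoxb7) were at least 2-fold lower in cluster 8, against 5.93% of all genes. The median log2 difference of the members was 0.32, beside 0 for all genes, since the members did not move one way. The members' shares of calls were above the background in both directions, in a pair of clusters chosen for a difference in such genes. With a pseudocount of 1 per 10000, which is above the level of most members, 1 of the 4 (Hoxb13) and 0 of the 2 stayed past 2-fold.

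Hoxb13 was 5.87 times higher in cluster 8 than in cluster 9 (4.93 to 7.03), a log2 difference of 2.47. Hoxd11 had the largest log2 difference, 2.71, and Hoxd13 and Hoxd10 had 1.70 and 1.58. Because cluster 9 held 1 or 2 UMIs of each Hoxd gene, their ratios of levels were wide: 77.6 for Hoxd11 (20.5 to 656), 45.8 for Hoxd10 (7.31 to 1902) and 14.5 for Hoxd13 (3.63 to 126). Hoxa13 was 2.3 times higher in cluster 8 (1.34 to 4.05) and did not pass 2-fold on the pseudocount scale (log2 0.89).

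Hoxb9 was 6.01 times higher in cluster 9 than in cluster 8 (3.06 to 13.3), a log2 difference of -1.83 in the direction of cluster 8 over cluster 9. The cluster 9 averages of Hoxb7 and Hoxb6 were 4.11 and 2.40 times the floor of 3 UMIs in cluster 8. Their log2 differences were -1.23 and -0.84. These folds leave out the counting error in cluster 9. For Hoxb6, the 3-UMI floor of cluster 8 (0.0326) lay below the cluster 9 interval (0.0365 to 0.147). The exact Poisson limit of the cluster 8 zero is higher than that floor and overlapped the interval at the depth estimate used here. With the median depth the exact intervals were apart. For Hoxa10 and Hoxa11os the ratios of cluster 8 to cluster 9, 0.737 (0.412 to 1.29) and 0.824 (0.606 to 1.12), had intervals that include equality. The ratio of Hoxb13 to the summed Hoxb6, Hoxb7 and Hoxb9 joined both directions. It was 74.1 (39.5 to 158) in cluster 8 and 1.57 (1.21 to 2.03) in cluster 9, the extremes of the epithelial clusters, which otherwise ran from 4.6 in cluster 6 to 24.9 in cluster 4.

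**Figure D3:**
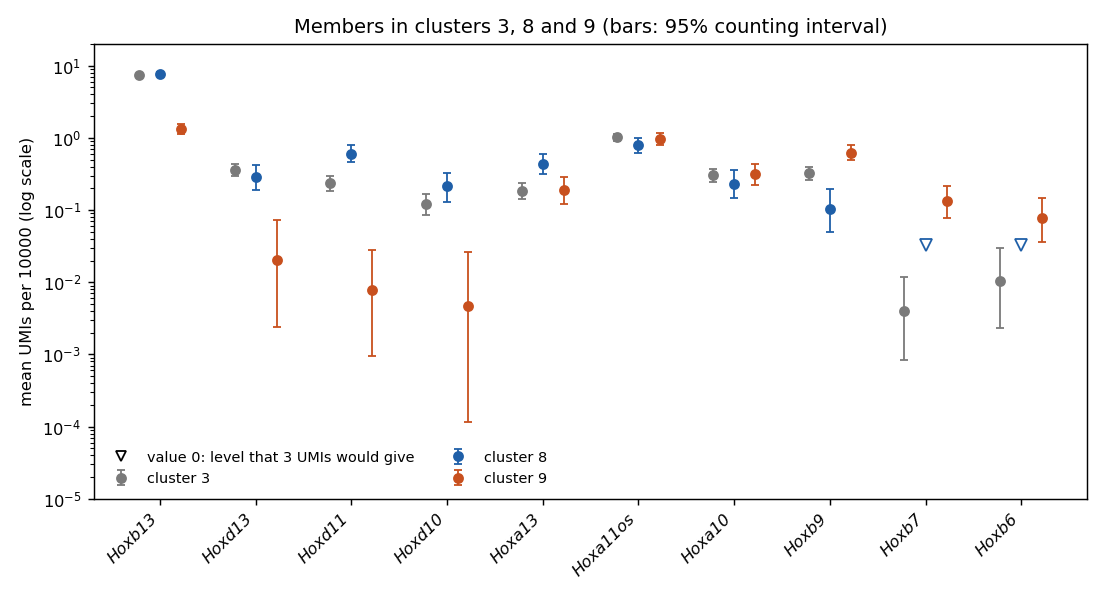
Levels of the 10 genes in clusters 3, 8 and 9 in UMIs per 10000 (log axis), with 95% counting intervals, and a mark at the 3-UMI floor where the average is 0. Cluster 9 lies below both others for Hoxb13, Hoxd10, Hoxd11 and Hoxd13 and above both for Hoxb9, Hoxb7 and Hoxb6, and the Hoxa genes differ less.

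Depth per cell differs between clusters 8 and 9, with medians of 6558 and 12871 UMIs, so cluster 3, at 12104.5, was set against cluster 9 as well, a comparison added after seeing the data. The same 4 genes were at least 2-fold higher in cluster 3, against 0.980% of all genes. Hoxb13 was 5.67 times higher (4.82 to 6.70), Hoxd11 30.2 times (8.07 to 254), Hoxd10 26.4 times (4.46 to 1071) and Hoxd13 18.2 times (4.92 to 152). In the other direction 1 of 10 members, Hoxb7, passed, against 1.17% of all genes. Its level was 33.5 times higher in cluster 9 than in cluster 3 (9.58 to 179), and Hoxb9, 1.92 times higher (1.41 to 2.62), did not pass. Hoxa10, Hoxa11os and Hoxa13 had cluster 3 to cluster 9 ratios of 0.973, 1.06 and 0.977. Both comparisons share cluster 9.

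Between clusters 8 and 3 themselves, 1 of 10 members was at least 2-fold higher in cluster 8, Hoxd11 at 2.57 times (1.78 to 3.69), against 2.99% of all genes. Hoxb9 alone was at least 2-fold lower in cluster 8, against 4.09% of all genes. In cluster 4 against cluster 9 the same 4 genes as above were higher (background 4.52%) and 2 members were lower (background 5.45%).

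Set against the mean of the other 11 clusters, 6 of 120 pairs of member and cluster passed 2-fold upwards (5% against 3.34% over all genes) and 19 downwards (15.8% against 7.5%). Cluster 9 was lower for Hoxb13, Hoxd10, Hoxd11 and Hoxd13, 4 of 10 members against 5.09% of all genes, and higher for 0 of 10 against 1.21%. The median over the members was 0.08 on the log2 scale there, beside -0.06 for all genes. Cluster 4 was higher for Hoxd10 and Hoxd11, 2 of 10 against 3.26%, and lower for Hoxb9, 1 of 10 against 7.29%. In cluster 8, Hoxa13 was higher, 1 of 10 against 3.70%, and Hoxb9 lower, 1 of 10 against 9.41%. Cluster 11 was higher for Hoxb13, Hoxa10 and Hoxb9, 3 of 10, but 11.1% of all genes also were in this cluster of 19 cells. Cluster 0 was lower for Hoxd11 alone, 1 of 10 against 5.48%.

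Of the leukocyte-marker clusters, cluster 10 held little Hox RNA and cluster 5 more. Cluster 10 was at least 2-fold lower for 8 of 10 members, against 13.2% of all genes, and cluster 5 for 4 of 10, against 19.4%. The summed Hoxa genes of cluster 5, 1.07 (0.755 to 1.48), and its 3 Hoxd members, 0.336 (0.172 to 0.591), lay close to those of the goblet-marker cluster 0, at 1.05 and 0.311, with overlapping intervals. Hoxb6 had its highest average of all 12 clusters in cluster 5, at 0.0865 (0.0178 to 0.253, 3 UMIs). In cluster 10, 15 Hox genes were above 0 in its 31 cells, 11 of them through a single cell each. For 5 of these, Hoxd10, Hoxd11, Hoxa10, Hoxa6 and Hoxb5, it was a cell of the same total, 25319 UMIs. Averages of that size describe single cells and not the cluster.

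Other Hox genes were set in the same contrast. The table holds 22 further Hox genes and Hox RNAs, of which 0 passed 2-fold upwards and 2 downwards in cluster 8 against cluster 9, beside 3.75% and 5.93% of all genes, a share too near the background to be read as a result about them. The 2 were Hoxa7, a central gene, and Hoxaas3, an RNA antisense within the Hoxa complex. Hoxa7 was 3.30 times higher in cluster 9 (2.08 to 5.45), at 0.830 against 0.251 in cluster 8, its lowest epithelial level, and 0.823 in cluster 3. Hoxaas3 had 0.193 in cluster 9, 0.0102 in cluster 8 and its highest level, 0.477, in cluster 0. Hoxa9, a posterior gene, had 0.370 and 0.418 in clusters 8 and 9, and Hoxa5 0.132 and 0.145, with ratio intervals that include equality. Hoxb8, which lies between Hoxb9 and Hoxb7, had 0.494 in cluster 11, 0.0591 in cluster 9, 0.00256 in cluster 3 and no UMI in cluster 8. No Hoxc gene was found among the measured genes.

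**Figure D4:**
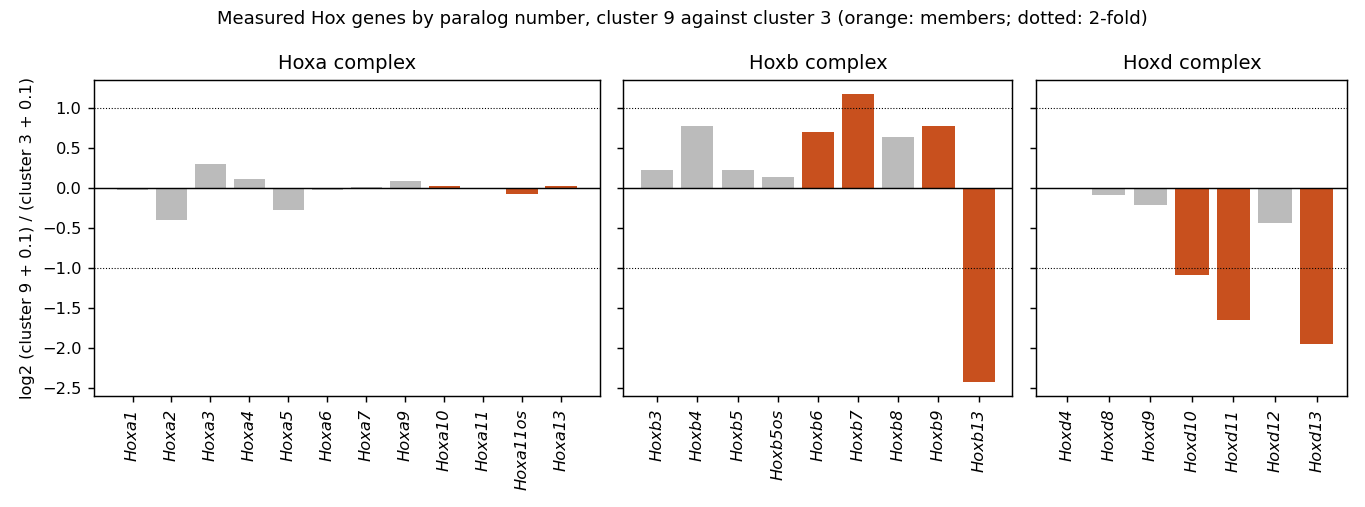
Log2 of cluster 9 over cluster 3 (pseudocount 0.1 per 10000) for the measured genes of the Hoxa, Hoxb and Hoxd complexes, placed by paralog number, with the 10 genes of the list in orange and 2-fold as dotted lines. Hoxb13, Hoxd10, Hoxd11 and Hoxd13 lie below the lower line and Hoxb7 above the upper one, and every Hoxa gene lies between them.

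Likeness between members over the 12 clusters followed the complex for Hoxd, and for Hoxb only in part. The points share libraries and differ in depth, so the correlations of log2 levels (n = 12 clusters) are descriptions only. Pearson's r was 0.74 to 0.81 among Hoxd10, Hoxd11 and Hoxd13, and 0.83 between Hoxb13 and Hoxd13, the highest of 45 pairs. Among Hoxb6, Hoxb7 and Hoxb9 it was 0.75 for Hoxb7 and Hoxb9, 0.40 for Hoxb6 and Hoxb7, and -0.05 for Hoxb6 and Hoxb9, while Hoxa10 and Hoxb9, of different complexes, had 0.77. Hoxb13 and Hoxb6 had the lowest, -0.47, and -0.93 over the 10 clusters without clusters 5 and 10. Both values rest on a sparse gene: Hoxb6 was at 0.0784 or less in those 10, below the pseudocount of 0.1. Its zero in cluster 11, where Hoxb13 was highest, allows up to 0.174. Among the 3 Hoxa members r was 0.57 to 0.75 over 12 clusters and 0.06 to 0.13 over those 10. Over the same 10 it was 0.64 to 0.76 among the 3 Hoxd genes and 0.065 to 0.69 among Hoxb6, Hoxb7 and Hoxb9. By rank (Spearman, 12 clusters) Hoxb7 and Hoxb9 had 0.89, the highest of the 45 pairs.

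Genes with the pattern most like each member were taken from about 3275 genes at 1 or more per 10000 in some cluster. For Hoxb13 they were Trp53i11 (r = 0.92), Ginm1 (0.92) and Avl9 (0.90). For Hoxd11 they were the annexin Anxa8 (0.90), the elongation factor gene Aff4 (0.88) and Duoxa2 (0.87), the maturation factor of an epithelial oxidase. Hoxd10 was most like Bnip3l (0.88), Camk2n1 (0.87) and Npepps (0.86), and Hoxb9 most like Nedd4 (0.94), Dalrd3 (0.92) and Emc10 (0.92). Hoxa10 was most like Gsk3b (0.89), Hnrnpl (0.88) and, from its own complex, Hoxa7 (0.88), and Hoxa11os most like Irf3 (0.93), Atp8b1 (0.92) and Tmc4 (0.90). Without clusters 5 and 10 the 3 values of Hoxa11os were 0.70, 0.55 and 0.50, and those of Hoxa10 0.88, 0.79 and 0.66. Over the same 10 clusters Hoxb13 had 0.75, 0.81 and 0.73, and the other named pairs 0.83 to 0.90. Each r above is the highest found in a search over these genes, on 12 points.

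Genes that act on or with Hox genes were compared between clusters 8 and 9 in the same way. Cdx2, a homeobox regulator of intestinal identity that acts upstream of Hox genes, was highest in cluster 9. Its level was 3.43 (3.11 to 3.78) for cluster 9, 0.681 for cluster 8 and 0.0761 to 0.853 for the other epithelial clusters. Its relative Cdx1 had 3.98 in cluster 9 and 2.16 in cluster 8. Of 18 measured gut identity regulators, 3 were at least 2-fold higher in cluster 9 and 1, Klf4, in cluster 8, where it was at 10.8 against 4.81. The shares over all genes, for these and the following lists, were those given above, 5.93% higher in cluster 9 and 3.75% higher in cluster 8. Isx, a homeobox repressor of vitamin A uptake genes, had 0.851 in cluster 9 and 0.0673 in cluster 8. Hnf4a, a nuclear receptor of enterocytes, had 2.32 and 3.66, and Klf5 of the proliferating crypt 3.60 and 3.67, neither past 2-fold. Of the 11 Hox cofactors, 0 passed in either direction. Clusters 8 and 9 had 0.702 and 0.798 of Pbxip1, 0.609 and 0.599 of Tgif1 (highest in the leukocyte-marker cluster 5, at 3.86), and 0.120 and 0.0706 of Meis3. Of 24 chromatin regulators, 2 were higher in cluster 8, Mtf2 (0.550 against 0.205) and Kmt2d (0.347 against 0.0933), and 0 in cluster 9. The 4 regulators with the highest level in any cluster did not pass: Kdm6b had 0.429 and 0.497 in clusters 8 and 9, Psip1 0.0386 and 0.123, Kmt2a 0.136 and 0.174, and Ezh2 0.125 and 0.157. Of 10 measured genes for upstream axial signals, 0 passed in either direction. The retinoid genes Rara, Rxra and Dhrs3 had 0.324, 0.601 and 0.390 in cluster 8, and 0.215, 0.358 and 0.513 in cluster 9.

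Marker genes of colon region outside the Hox family were set beside these levels. Of 11 measured distal colon and rectum genes, 6 were at least 2-fold higher in cluster 8 and 0 in cluster 9, with a median log2 difference of 2.23 beside 0 for all genes. Car4, Aqp8 and Slc26a3 of these 6 are also among the absorptive colonocyte markers above. Cyp2c55 and Alpi of the proximal list below are among them too. The regional lists are therefore not independent of the markers that named clusters 8 and 9. Cluster 3 did not share this in the summed level of the list, which was 281 in cluster 8, 31.1 in cluster 9 and 25.4 in cluster 3. Saa1 was the largest term of each sum. Fxyd4, a regulator of the sodium pump in the distal colon, had 21.9 in cluster 8, 6.11 in cluster 3 and 0.0162 in cluster 9. Saa1, an acute phase protein, had 168, 13 and 14.2 in clusters 8, 3 and 9, the carbonic anhydrase Car4 38.1, 1.91 and 6.82, and the water channel Aqp8 23.3, 0.862 and 4.45. For these 3 genes and for Slc26a3 (2.42 against 4.33), cluster 3 lay below cluster 9. For Fxyd4 and Ly6g (0.939 against 0.178), the others of the 6, cluster 3 lay above cluster 9, as for Hoxb13 and the Hoxd genes. Insl5, a hormone of distal enteroendocrine cells, was highest in cluster 11 at 47.4. Of 14 measured genes of the proximal colon and small intestine, 4 were higher in cluster 9 and 2 in cluster 8, with a median of -0.20. Fabp2, a fatty acid binding protein of small intestinal enterocytes, had 26.7 in cluster 9 and 0.212 in cluster 8. Apob and Rbp2 were the 2 that went the other way. Cyp2c55, a cytochrome P450, had 12.5 in cluster 9 and 8.81 in cluster 8, and the protease Mep1a 2.09 and 3.79. Ang4, an antimicrobial ribonuclease, had 5.33 in the goblet-marker cluster 0, and 0.0210 and 0.0177 in clusters 9 and 8. Where along the colon the cells of a cluster came from is not given in the labels, and position was not measured apart from expression.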

How the data were processed

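Single-cell RNA of irradiated mouse colon epithelium was measured in 2 libraries of 1 group. The tools were Cell Ranger 3.1.0 and Seurat 2.3 on mm10, per the submitters' processing notes. How cells were filtered, clustered and checked for doublets is not given in the sources used here. Deposited values are the authors' linear averages of UMIs per 10000 per cell in each of 12 clusters, as judged from column sums of 10000.

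Numbers of cells and UMI totals were recovered from averages for which 10000 divided by the average is whole (relative tolerance 1e-12), giving totals for 2312 of 3082 cells. UMIs behind an average came from the harmonic mean of these totals, or exactly where the UMIs of up to 4 cells gave the average (tolerance 3e-14). The steps were tested on simulated data. Poisson and Clopper-Pearson intervals are at 95%. Calls used 2-fold on log2(level + 0.1), which understates folds of low genes, and the floor was 3 UMIs. Python 3.11.15, numpy 2.4.6, pandas 2.3.3 and scipy 1.17.1 were used.

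The members and all lists were chosen with earlier results of these data known. Named genes were all members, other Hox genes at 0.2 or more in a cluster, the 3 genes most like each member at 0.5 or more, and the 4 highest genes of each list of regulators, regional genes and sex-linked genes, apart from a few that are not reported here. Genes named where a count of 5 or fewer is spelled out, and Cdx2, Isx and Fxyd4, were chosen after their values were seen. So were Slc26a3, Ly6g and Alpi. Alternatives covered the pseudocount, the reference, clusters left out, a rescaling, a filter on low values and the UMI estimate. All 32 Hox rows matched the mm10 annotation (GENCODE M21), and 6 of 10 members matched RefSeq start regions.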

Additional observations from a re-analysis of the deposited data

How the results depend on the processing

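Pseudocounts of 1 and 0.01 per 10000 moved the counts most. For cluster 8 against cluster 9, 4 members were higher and 2 lower. At a pseudocount of 1, 1 was higher (Hoxb13) and 0 lower. With cluster 3 in place of cluster 8, 1 was lower. Against the mean of the other clusters, 6 pairs of member and cluster were higher and 19 lower. At a pseudocount of 1 these were 2 and 3, at 0.01 they were 13 and 33, and without clusters 5, 6 and 10 there were 10 lower pairs. The last alternative removed pairs and also changed the reference mean. In cluster 9, the 4 lower members became 1 at a pseudocount of 1, and the 0 higher members became 2 at 0.01. Rescaling without mitochondrial, ribosomal protein and Malat1 RNA, the median as reference and the filter at 0.1 left these counts within 1.5 times. Of 30 single-gene values for cluster 8 against cluster 9, 22 stayed on their side of 2-fold, 5 fell below it, 3 passed it and 0 changed sign.

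The Hoxd levels of cluster 9 rest on 5 UMIs, and Hoxb6 and Hoxb7 levels on few UMIs anywhere. Leaving out a library was planned and not run, because no column names its library. No paired analysis was possible because the columns carry no replicate numbers and there is 1 group.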
